A study of Mus musculus with 10 samples.

Results

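The D-type cyclins, their partner kinases and the CDK inhibitors were followed in forelimb bud ectoderm of mouse embryos that lacked the transcription factors Sp8 and Sp6. The set held 10 genes, taken by symbol from the 55401 genes of the deposited count table: Ccnd1, Ccnd2, Ccnd3, Cdk4, Cdk6, Cdkn1a, Cdkn1b, Cdkn2a, Cdkn2b and Cdkn2c. Of these, 9 passed the filter on low counts and were tested. Cdkn2a had 0 counts in each library and was not tested. The 2 groups were 3 libraries of double knockout embryos (DKO, labelled SP8&SP6_DOUBLE_KO) and 3 of wild-type littermates (WT), all at embryonic stage E9.75. A library held the ectoderm of a few forelimb buds, peeled off with forceps after trypsin, so it is a small pool of a whole epithelium. The labels give no strain, no allele design and no treatment beyond the digestion, and do not say which libraries share a litter. The E10.5 libraries (2 lacking Sp6 and 2 WT) were not analysed here.

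These genes act at the entry into the cell cycle. D-type cyclins are made in response to growth signals and bind the kinases Cdk4 and Cdk6, and the complexes phosphorylate the retinoblastoma family of pocket proteins, which releases E2F transcription factors and lets S-phase genes be expressed. The INK4 proteins (from Cdkn2a, Cdkn2b and Cdkn2c, with Cdkn2d) bind the 2 kinases and block their pairing with cyclin D. The Cip/Kip proteins (p21 from Cdkn1a, p27 from Cdkn1b, p57 from Cdkn1c) bind cyclin-CDK complexes and inhibit above all those of Cdk2. In the limb bud, Cdkn1a transcripts are known from the apical ectodermal ridge, the thickened rim of the ectoderm that signals to the mesenchyme.

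The libraries held between 64432348 and 87040786 counts, with the fewest in WT 53. Genes with a count numbered 22798, 23891 and 24560 in DKO 17, DKO 40 and DKO 41. In WT 32, WT 53 and WT 56 they numbered 24651, 21716 and 24115. The columns carry the numbers 17, 40 and 41 for DKO and 32, 53 and 56 for WT, which are used here as names only. Levels are CPM, counts scaled to the size of a library by TMM factors. Sp8 averaged 36.2 ± 6.22 CPM in WT and only 3.68 ± 1.90 in DKO (SD, n = 3 each; edgeR adjusted p = 0.000806). Sp6 was at 286.8 ± 50.7 CPM in WT and at 133.2, 13.9 and 76.9 CPM in DKO 17, DKO 40 and DKO 41 (edgeR adjusted p = 0.207), and these totals per gene do not show which part of the gene they came from, nor separate it from the antisense gene Gm11532, with which it shares 3329 exon bases. The ectoderm markers were present in all 6 libraries: 12 of them summed to between 1703 and 2243 CPM in DKO and between 2624 and 3093 CPM in WT. The 10 mesenchyme markers summed to between 160.3 and 372.1 CPM in DKO and between 181.1 and 276.9 CPM in WT, but single markers differed in both directions. They were also uneven among the WT libraries. Prrx1 was at 29.0, 1.61 and 0.412 CPM in WT 32, WT 53 and WT 56, and Col3a1 at 31.1, 3.60 and 0.767 CPM. Tbx5 and Hand2 were likewise highest in WT 32. Pdgfra was highest in WT 56 (94.5 CPM), and Meox1 (80.2 CPM) and Col1a1 (12.8 CPM) in WT 53. By edgeR, Pdgfra (8.69-fold) and Meox1 (4.08-fold) were called lower in DKO. Prrx2 (3.07-fold), Twist1 (4.58-fold) and Twist2 (10.3-fold) lay above WT in each DKO library without being called by edgeR. Of the 10, edgeR called 2 lower and 0 higher, beside 2.81% and 1.7% of all genes tested. At an unadjusted p under 0.05, 2 were lower and 3 higher, beside 9.36% and 8.66%. DESeq2 called 2 lower and 2 higher, beside 4.97% and 3.83%. The groups did not overlap for 5 of the 10, beside 21.9% of all genes tested. The 9 red blood cell markers ranged from 26.97 to 917.8 CPM in DKO, highest in DKO 41, and from 0 to 300.8 CPM in WT, highest in WT 53. The endothelial and macrophage markers reached at most 2.43 CPM in sum, with Cdh5 and Adgre1 at 0 counts, and the 5 markers of muscle precursors and neural crest at most 13.7 CPM, with Foxd3 at 0.

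Of the 9 genes tested, Cdkn1a alone passed an adjusted p of 0.05, and it was lower in DKO by 2.22-fold. The 3 D-type cyclins, Cdk4 and Cdk6 did not pass, and their fitted differences lay between -0.18 and 0.17 on the log2 scale. Cdkn1b and Cdkn2b had larger fitted differences of opposite sign at levels of about 1 CPM, and neither passed. In the whole table, 4.51% of the 19126 genes tested were called, 2.81% lower and 1.7% higher in DKO. Nothing about the set as a whole is read from 1 call in 9. No member was called higher; at an unadjusted p under 0.05 there were 2 lower (Cdkn1a and Cdkn2b) and 1 higher (Cdkn1b), and DESeq2 called 1 lower and 0 higher. The libraries of the 2 groups did not overlap for 2 of the 9 genes (Cdkn1a and Cdkn1b), where the share over all genes tested was 21.9%. The median log2 fold change (DKO minus WT) of the 9 was -0.07, beside 0.03 over all genes tested.

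**Figure D1:**
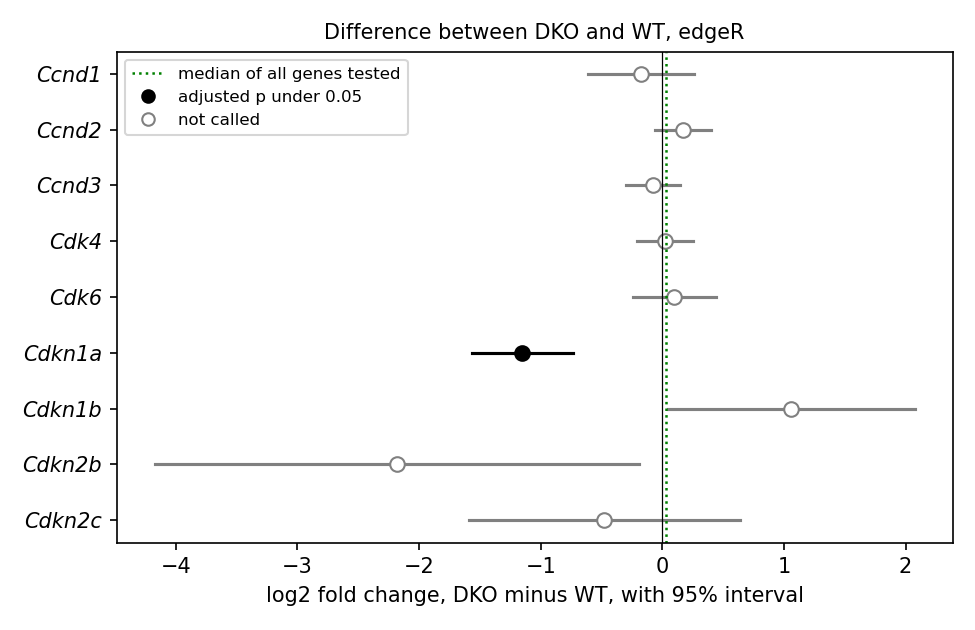
Log2 fold change (DKO minus WT) of each tested gene on the horizontal axis, fitted with edgeR, with its 95% interval as a bar; the dotted line is the median of all genes tested. Cdkn1a is the filled point at -1.15, and the intervals of the cyclins and kinases are much shorter than those of Cdkn1b, Cdkn2b and Cdkn2c.

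Among the D-type cyclins, Ccnd2 gave the most counts. Ccnd2 (ENSMUSG00000000184.12, GRCm38 chromosome 6, 127125162 to 127152193) stood at 962, 1069 and 1060 CPM in DKO 17, DKO 40 and DKO 41 and at 1007, 889 and 856 CPM in WT 32, WT 53 and WT 56. WT 32 lay within the DKO range, so the groups overlapped. The means were 917.4 ± 79.6 CPM in WT against 1030 ± 59.1 CPM in DKO (SD, n = 3 each). On the log2 scale DKO minus WT came to 0.17 (SE 0.102, 95% interval -0.06 to 0.40, edgeR adjusted p = 0.446).

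Ccnd3 (ENSMUSG00000034165.16, chromosome 17, 47505051 to 47599691) was not called either, with 564, 533 and 618 CPM in the DKO libraries and 579, 608 and 617 CPM in the WT libraries. DKO 41 was level with the highest WT library. Its log2 fold change was -0.07 (95% interval -0.30 to 0.15, edgeR adjusted p = 0.769). Ccnd1 (ENSMUSG00000070348.5, chromosome 7, 144929931 to 144939925), the cyclin D gene best known as a target of growth factor and WNT signals, was the lowest of the 3 cyclins. It read 63.3, 66.0 and 52.8 CPM in DKO and 83.9, 49.7 and 71.4 CPM in WT. The WT libraries spanned the DKO range on both sides, WT 53 being the lowest of all 6 and WT 32 the highest. Ccnd1 had a log2 fold change of -0.18 (SE 0.193, 95% interval -0.61 to 0.26, edgeR adjusted p = 0.706), and it turned to 0.054 without WT 32 and DKO 41. A change of 1 log2 unit in either direction lies outside the intervals of all 3 cyclins.

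Neither kinase was called. Cdk4 (ENSMUSG00000006728.12, chromosome 10, 127063534 to 127067920), a catalytic partner of the D-type cyclins, read 1937, 1925 and 1773 CPM in DKO and 1837, 2039 and 1666 CPM in WT. The lowest and the highest library were both WT. Its log2 fold change was 0.02 (95% interval -0.21 to 0.26, edgeR adjusted p = 0.934), with a sign that turned to -0.054 without WT 56 and to -0.0036 without WT 32. Cdk6 (ENSMUSG00000040274.11, chromosome 5, 3341485 to 3531008), the other partner kinase, read 37.8, 35.2 and 36.0 CPM in DKO and 39.4, 30.1 and 32.1 CPM in WT. The 3 DKO libraries lay close together inside the wider WT range. Cdk6 had a log2 fold change of 0.10 (95% interval -0.24 to 0.44, edgeR adjusted p = 0.804).

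These libraries do not mark strand, so where exons of 2 genes share bases a read may come from either gene. Exons of Ccnd1 overlap those of LTO1 by 1100 bases, those of Ccnd3 overlap Bysl by 361 and those of Cdk4 overlap Tspan31 by 641. The partners did not pass the threshold: LTO1 was at 27.3 CPM in WT against 25.2 in DKO, Bysl at 147.8 and 146.2, and Tspan31 at 185.5 and 176.0. Ccnd2 shares 740 exon bases with 2 antisense genes and Cdk6 shares 368 with 1. Cdkn1a shares 273 with AC167363.2, which was not found by symbol among the genes counted, so its level could not be given.

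Cdkn1a, which encodes the Cip/Kip inhibitor p21, was lower in each DKO library than in each WT library. Cdkn1a (ENSMUSG00000023067.14, chromosome 17, 29090976 to 29100727) read 92.5, 63.7 and 61.7 CPM in DKO 17, DKO 40 and DKO 41. It read 134.5, 171.8 and 178.2 CPM in WT 32, WT 53 and WT 56. DKO 17, the highest DKO library, lay well under WT 32, the lowest WT library. The means were 161.5 ± 23.6 CPM in WT against 72.6 ± 17.2 CPM in DKO (SD, n = 3 each), a log2 fold change of -1.15 (SE 0.183, 95% interval -1.57 to -0.74, edgeR adjusted p = 0.0101). The call was lost without DKO 40 (-1.07, adjusted p = 0.068) and without WT 56 (-1.08, adjusted p = 0.0654). Without each of the other 4 libraries in turn it stayed called, between -1.05 and -1.36, and over all 11 alternatives the adjusted p ran from 1.8e-06 to 0.068. In RNA of a whole tissue, fewer cells that express a gene and less RNA per cell cannot be told apart.

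Other values that differed between the libraries are given beside Cdkn1a. DKO 17, which had the most Cdkn1a of the DKO libraries, also had the most Sp6 (133.2 CPM) and the most Sp8 (5.86 CPM, against 2.38 in DKO 40 and 2.80 in DKO 41). It also held the most Fgf8, the growth factor made by the apical ectodermal ridge: 13.5 CPM, against 0.261 in DKO 40 and 0.930 in DKO 41. Between DKO 40 and DKO 41 these 3 genes were higher in DKO 41. Cdkn1a was nearly level there (63.7 and 61.7 CPM), so its order between these 2 libraries is not read. WT libraries held between 1181 and 1387 CPM of Fgf8. The summed ectoderm markers given above were lower in each DKO library than in each WT library, as Cdkn1a was. Among the DKO libraries the sum was highest in DKO 41 (2243 CPM), and Cdkn1a was highest in DKO 17. Of these 12 markers, edgeR called 2 lower (Epcam and Cdh1) and 1 higher (Krt8), beside 2.81% and 1.7% of all genes. With edgeR unadjusted, 9 were lower and 1 higher at p under 0.05 (9.36% and 8.66% of all genes). By DESeq2, 5 were lower and 1 higher (4.97% and 3.83%). The groups lay apart for 7 markers, with DKO below for 6 and above for 1. Krt5 (10.9-fold lower) and Grhl3 (4.26-fold lower) were among those 6 but not called by edgeR. The 12 fitted values had a median of -0.50, beside 0.03 over all genes. The part of the Sp6, Sp8, Fgf8 and ectoderm marker levels in the Cdkn1a difference was not tested. Nor was that of the number of genes with a count, which was lowest in DKO 17 among the DKO libraries. The red blood cell markers summed to 26.97, 127.2 and 917.8 CPM in DKO 17, DKO 40 and DKO 41. In WT 32, WT 53 and WT 56 they summed to 0.116, 300.8 and 0 CPM. The part of the red blood cell markers was not tested, nor that of the mesenchyme, muscle precursor and neural crest markers. Without DKO 41 the log2 fold change of Cdkn1a was -1.05 (edgeR adjusted p = 0.0334).

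**Figure D2:**
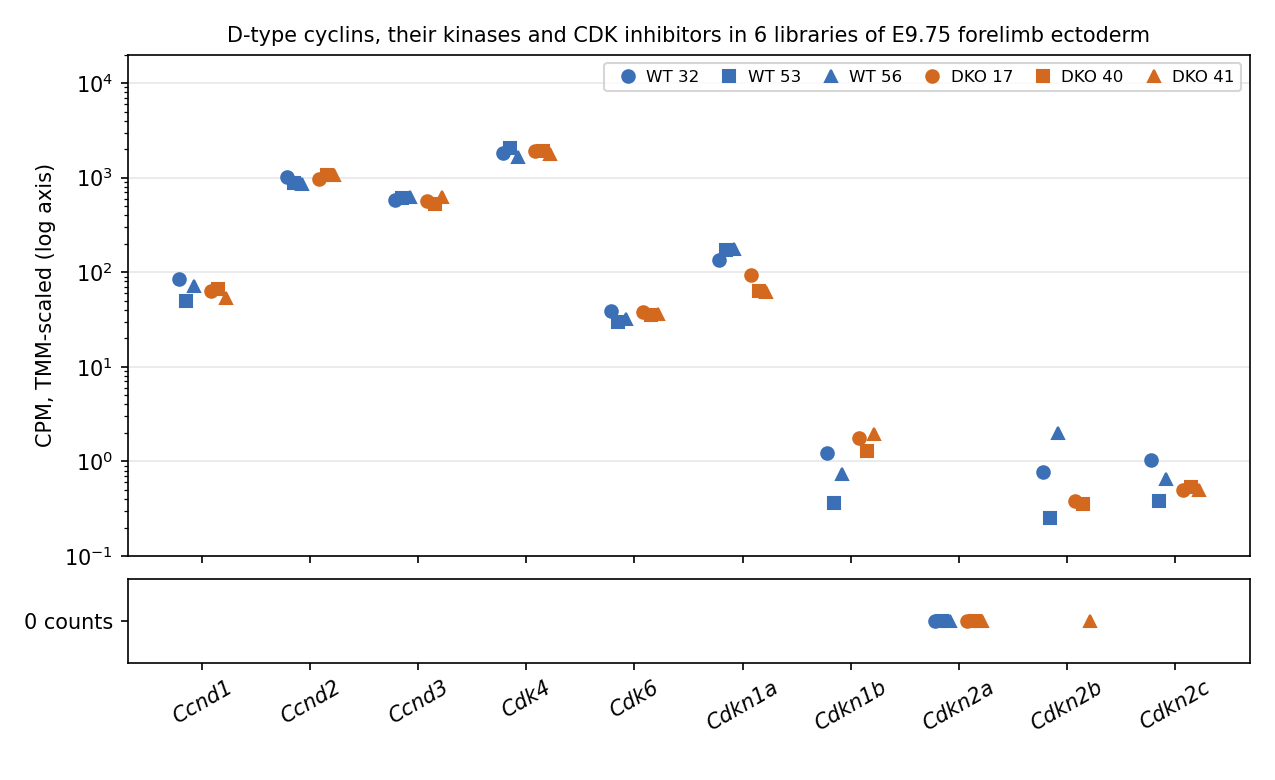
TMM-scaled CPM of each gene on a log axis, with 1 marker per library (WT in blue, DKO in orange) and libraries at 0 counts in the strip below. Cdkn1a and Cdkn1b are the genes whose groups do not overlap, Cdkn1a with DKO below and Cdkn1b with DKO above.

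Cdkn1a has 2 annotated promoters in RefSeq, and they differ in the motifs that were searched. Windows from 250 bases before to 50 bases after each transcription start were matched by symbol in GRCm38.p6, which gave 12 windows for 8 of the 10 genes; no window was matched for Ccnd1 and Ccnd2. The motifs were the GC box GGGCGG, which SP factors are known to bind, the E box CACGTG, the TATA box TATAAA, 3 E2F sequences (TTTCCCGC, TTTGGCGC and TTTCGCGC) and the p53 response element, read as 2 adjacent half-sites with at most 1 mismatch to its consensus. All were searched on both strands. The upstream window of Cdkn1a holds 1 p53 response element and 0 GC boxes, and the downstream window, inside the gene, holds 2 GC boxes and no p53 element. A p53 element of this strictness stood in 0.0883% of the 32851 windows of the annotation, and a GC box in 35.7%. The 2 windows are shown up to the base before the start, because Cdkn1a is the gene that was called, with that of Cdk4, the member with the highest level per length, for comparison. The Cdk4 window holds 3 GC boxes, 1 of them in the stretch shown, and 4 E boxes, the sequence bound by MYC proteins; 4 or more stood in 0.0244% of windows. An E box reads the same on both strands and was counted once, and no marked motif overlaps another in these stretches. Capitals mark the p53 element, the GC boxes and the E boxes, with the positions chr17:29090729-29090975 (plus strand), chr17:29093519-29093768 (plus strand) and chr10:127063285-127063533 (plus strand).
Cdkn1a upstream promoter: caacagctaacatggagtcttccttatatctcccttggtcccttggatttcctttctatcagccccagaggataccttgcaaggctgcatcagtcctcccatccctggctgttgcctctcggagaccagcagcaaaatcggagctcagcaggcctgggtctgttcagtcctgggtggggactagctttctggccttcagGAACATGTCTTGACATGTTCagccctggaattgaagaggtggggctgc
Cdkn1a downstream promoter: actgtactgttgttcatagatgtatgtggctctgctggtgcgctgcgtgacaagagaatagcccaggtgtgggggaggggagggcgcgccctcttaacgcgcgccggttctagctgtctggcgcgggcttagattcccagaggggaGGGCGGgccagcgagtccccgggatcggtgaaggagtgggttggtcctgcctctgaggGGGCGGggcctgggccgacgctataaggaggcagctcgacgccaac
Cdk4 promoter: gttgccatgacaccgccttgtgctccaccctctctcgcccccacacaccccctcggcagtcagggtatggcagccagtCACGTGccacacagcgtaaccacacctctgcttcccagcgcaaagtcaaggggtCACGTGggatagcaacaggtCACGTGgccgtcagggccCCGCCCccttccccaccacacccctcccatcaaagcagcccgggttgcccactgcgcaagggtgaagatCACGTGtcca

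The whole windows of the other genes held GC boxes in 2 of 2 for Ccnd3 (2 each), 1 of 1 for Cdkn1b and for Cdkn2b, 2 of 2 for Cdkn2a (3 and 1) and 1 of 2 for Cdkn2c (4). The Cdk6 window held 0 GC boxes, 1 E box and 1 TATA box. The E2F sequences matched 1 window of Cdkn2a and no other, against 1.84% of all windows. A match is a description of these letters and not a bound site, and the totals per gene do not show which Cdkn1a promoter was used.

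Cdkn1b, which encodes p27, went the other way at a low level. Cdkn1b (ENSMUSG00000003031.14, chromosome 6, 134920401 to 134925513) had 148, 98 and 176 counts in DKO and 105, 23 and 65 in WT. Scaled by depth these were 1.78, 1.28 and 1.97 CPM in DKO and 1.22, 0.363 and 0.744 CPM in WT. Each DKO library lay above each WT library, by a narrow margin between DKO 40 and WT 32. Cdkn1b had a log2 fold change of 1.06 (SE 0.448, 95% interval 0.04 to 2.07), which did not pass after adjustment over all genes (edgeR adjusted p = 0.255). It stayed positive with any 1 library left out, from 0.79 to 1.51.

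Cdkn1c, the third Cip/Kip gene and not one of the 10, was far more abundant than either. It read 645.8, 1036 and 1147 CPM in DKO and 535.2, 635.8 and 511.4 CPM in WT, so DKO 17 stood just above the highest WT library. The log2 fold change of Cdkn1c was 0.75 (SE 0.198) and did not pass (edgeR adjusted p = 0.0713). It passed with DESeq2 (adjusted p = 0.0129) and with edgeR without DKO 17 (0.96, adjusted p = 0.00724), with adjusted p between 0.00724 and 0.310 over the 11 alternatives. Per kilobase of exon, the 3 Cip/Kip genes summed to a mean of 320.7 CPM in WT against 483.2 CPM in DKO. This sum was formed after the values were seen and is given without a test. It was 343.1, 526.4 and 580.2 in DKO 17, DKO 40 and DKO 41, and 300.6, 360.3 and 301.1 in WT 32, WT 53 and WT 56. DKO 17 lay below WT 53, so the groups overlapped. Of the mean sums Cdkn1c made 275.0 in WT and 462.4 in DKO, and Cdkn1a made 45.5 and 20.4. Exons of Cdkn1c overlap those of Gm44732 by 625 bases.

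The INK4 genes of the set were low or not detected. Cdkn2a (ENSMUSG00000044303.6, chromosome 4, 89274471 to 89294653), the source of p16 and p19Arf, had 0 counts in all 6 libraries, which allows up to 0.0127 CPM in the WT group and 0.012 CPM in the DKO group (3 counts over a group, for counting error only). Its neighbour Cdkn2b (ENSMUSG00000073802.5, 89306299 to 89311039), the source of p15, had 32, 27 and 0 counts in DKO and 66, 16 and 176 in WT. As CPM these were 0.384, 0.353 and 0 in DKO and 0.764, 0.253 and 2.01 in WT. The WT libraries differed among themselves more than the DKO libraries did, and WT 53 lay below 2 of the 3 DKO libraries. Cdkn2b had a log2 fold change of -2.18 (SE 0.890, 95% interval -4.17 to -0.19), which did not pass (edgeR adjusted p = 0.230). Without WT 56 it was -1.20, and without DKO 17 it was -2.72. Cdkn2c (ENSMUSG00000028551.14, chromosome 4, 109660876 to 109667189), the source of p18, had 42, 41 and 45 counts in DKO and 89, 24 and 57 in WT. The DKO libraries lay inside the WT range, and the log2 fold change was -0.48 (95% interval -1.59 to 0.64, edgeR adjusted p = 0.690). A 2-fold decrease of Cdkn2c lies inside that interval, and a 2-fold increase does not. The fourth INK4 gene, Cdkn2d, was the most abundant of them, at 29.5 ± 0.719 CPM in WT against 34.2 ± 2.99 CPM in DKO (log2 fold change 0.21, edgeR adjusted p = 0.494).

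The protein-coding genes on either side of Cdkn2a and Cdkn2b did not share one level. Mtap, a methionine salvage enzyme gene whose end lies 93390 bases below Cdkn2a, was at 131.6 ± 16.2 CPM in WT against 156.0 ± 24.4 CPM in DKO (edgeR adjusted p = 0.445). Dmrta1, a DMRT family transcription factor gene that starts 368397 bases above Cdkn2b, fell from 3.06 ± 0.877 to 0.208 ± 0.217 CPM, with 36, 0 and 17 counts in the DKO libraries and 221, 258 and 223 in WT. That is -3.80 on the log2 scale (SE 0.616, edgeR adjusted p = 0.0089), and the call was lost with the older dispersion setting of edgeR (legacy=TRUE, adjusted p = 0.122, the highest of the 11 alternatives) and without WT 32 and DKO 41 (adjusted p = 0.0748).

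Compared per kilobase of exon, the levels of the 9 genes with counts spread over more than 3 orders of magnitude in WT. Cdk4 was highest, at 568.6 CPM per kilobase (512.8 to 627.6 over the WT libraries), followed by Ccnd2 at 97.5 (91.0 to 107.1) and Ccnd3 at 68.5 (66.0 to 70.3). Then came Cdkn1a at 45.5 (37.9 to 50.1), Ccnd1 at 14.5 (10.55 to 17.8) and Cdk6 at 2.42 (2.15 to 2.82). None of these 6 overlapped the next one in WT. The low group of Cdkn2b (0.182 to 1.45), Cdkn2c (0.141 to 0.384) and Cdkn1b (0.0798 to 0.267) overlapped one another. In DKO the order of the upper 6 was the same, with Cdkn1a at 17.4 to 26.0 CPM per kilobase and Ccnd1 at 11.2 to 14.0. The place of Ccnd3 depended on the length used: with the principal transcript (2113 bases, in place of 8775 for the union of exons) Ccnd3 stood above Ccnd2 in WT. By union of exons, Ccnd2 made 53.9% of the summed D-type cyclin level in WT and 58.4% in DKO, Ccnd3 38.1% and 34.7%, and Ccnd1 7.99% and 6.89%. By principal transcript Ccnd3 made 63.6% and 60.1% and Ccnd2 32.3% and 36.2%.

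Besides single genes, 2 ratios and 1 sum were compared between the groups; the ratios do not depend on the scaling of a library, and the sum does. The log2 ratio of Ccnd2 to Ccnd1, in counts, was 3.93, 4.02 and 4.33 in DKO and 3.59, 4.16 and 3.58 in WT, a difference of 0.31 (exact permutation test, two-sided, p = 0.3, adjusted over the 3 values 0.45). WT 53 lay among the DKO libraries. The log2 ratio of Cdk6 to Cdk4 was -5.69 ± 0.0756 in DKO and -5.77 ± 0.277 in WT (SD, n = 3 each; exact permutation p = 0.8, adjusted 0.8), and the sign of its difference of 0.08 turned without WT 53 (-0.072). The summed D-type cyclin level per kilobase of exon was 187.5 ± 7.22 CPM in DKO and 180.5 ± 8.98 CPM in WT (exact permutation p = 0.3, adjusted 0.45). With 3 libraries a group the smallest p of this test is 0.1, so none of the 3 could pass 0.05, and a p above it does not show that the values were equal.

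The genes whose pattern over the 6 libraries came closest to that of Cdkn1a were Dcbld1, Cdca7l and Slc30a4. Closeness was the root mean square distance of centred log2 CPM among 10286 protein-coding genes with a mean of at least 5 CPM. Dcbld1 lay 0.0353 from Cdkn1a and averaged 193.3 CPM in WT against 87.9 CPM in DKO (edgeR adjusted p = 0.0109). Cdca7l lay 0.0769 away and went from 163.2 to 74.0 CPM (adjusted p = 0.00517), and Slc30a4 lay 0.101 away and went from 21.7 to 9.38 CPM (adjusted p = 0.0148). Lower levels in DKO and small adjusted p follow from choosing genes by closeness to Cdkn1a in the same libraries. They are not a separate result. For Cdkn1b the nearest were Dact2 (0.196), Rev3l (0.233) and Dnajc1 (0.309), of which none was called. For Cdkn2b no gene came within 0.9 of its pattern: Prdm1 was nearest at 0.957, then Relt at 1.21 and Gm49909 at 1.22. Cdkn2b itself averaged 1.01 CPM in WT and 0.246 CPM in DKO, under the 5 CPM required of the genes compared. The part of its low counts in these distances was not tested, so they do not show an unusual pattern.

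No gene was called in the lists downstream of the cyclin D kinases, beside 4.51% called over all genes. At an unadjusted p under 0.05, 9.36% of the 19126 genes were lower in DKO and 8.66% higher, and DESeq2 called 4.97% of them lower and 3.83% higher. Of 13 pocket protein and E2F genes tested with edgeR, 0 were lower and 0 higher, with 2 lower and 0 higher at an unadjusted p under 0.05 and 0 by DESeq2. Their median log2 fold change was -0.13, beside 0.03 over all genes tested. Rb1, the retinoblastoma gene, was at 10.98 ± 2.55 CPM in WT against 6.30 ± 2.38 CPM in DKO (log2 fold change -0.81, edgeR adjusted p = 0.199). Its relative Rbl1 was at 24.6 ± 3.97 and 17.5 ± 2.85 CPM (-0.50, adjusted p = 0.216). Of 18 S-phase genes under E2F control, 0 were called by edgeR or DESeq2, with 1 in each direction at an unadjusted p under 0.05, where 4.51% of all genes were called by edgeR, and all 18 lay between -0.28 and 0.35. Those at the ends of that range were Mcm3, a subunit of the replicative helicase (580.3 ± 45.9 CPM in WT, 477.2 ± 28.0 in DKO), and Mki67, a proliferation marker (110.7 ± 21.5 and 141.3 ± 1.07).

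Among the later cyclins and kinases no gene was called either. Of 15 cyclin E, A and B genes, later CDKs and CDC25 phosphatases, 0 were called by edgeR or DESeq2, with 1 in each direction at an unadjusted p under 0.05 and a median of 0.07, beside 4.51% called over all genes. The fitted values ran from -0.47 to 1.92, and the groups did not overlap for 4 of the 15, beside 21.9% of all genes. Ccne2, which drives Cdk2 at the start of S phase, was at 51.5 ± 2.998 CPM in WT against 37.1 ± 8.69 CPM in DKO (log2 fold change -0.47, edgeR adjusted p = 0.190), and it was called without DKO 17 (-0.68, adjusted p = 0.0441, from a range of 0.0441 to 0.499 over the alternatives). Cdc25c, a phosphatase that activates Cdk1, was at 64.8 ± 6.75 and 83.4 ± 1.32 CPM (0.36, adjusted p = 0.151). The list for the turnover of cyclin D and p27 had 11 genes, of which Skp1 was not found by symbol among the genes counted. Of the other 10, 0 were called by edgeR. At an unadjusted p under 0.05, 3 were lower and 2 higher, and DESeq2 called 2 lower and 1 higher. Over all genes these shares were 4.51% by edgeR, 9.36% and 8.66% unadjusted, and 4.97% and 3.83% by DESeq2. Among them Fbxo4, an F-box protein gene linked to cyclin D1 turnover, was at 5.24 ± 0.586 CPM in WT against 3.09 ± 0.283 in DKO (-0.76, edgeR adjusted p = 0.152). Cry1, a clock repressor also linked to F-box ligases, was at 30.7 ± 2.22 and 18.8 ± 5.46 CPM (-0.71, adjusted p = 0.107).

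**Figure D3:**
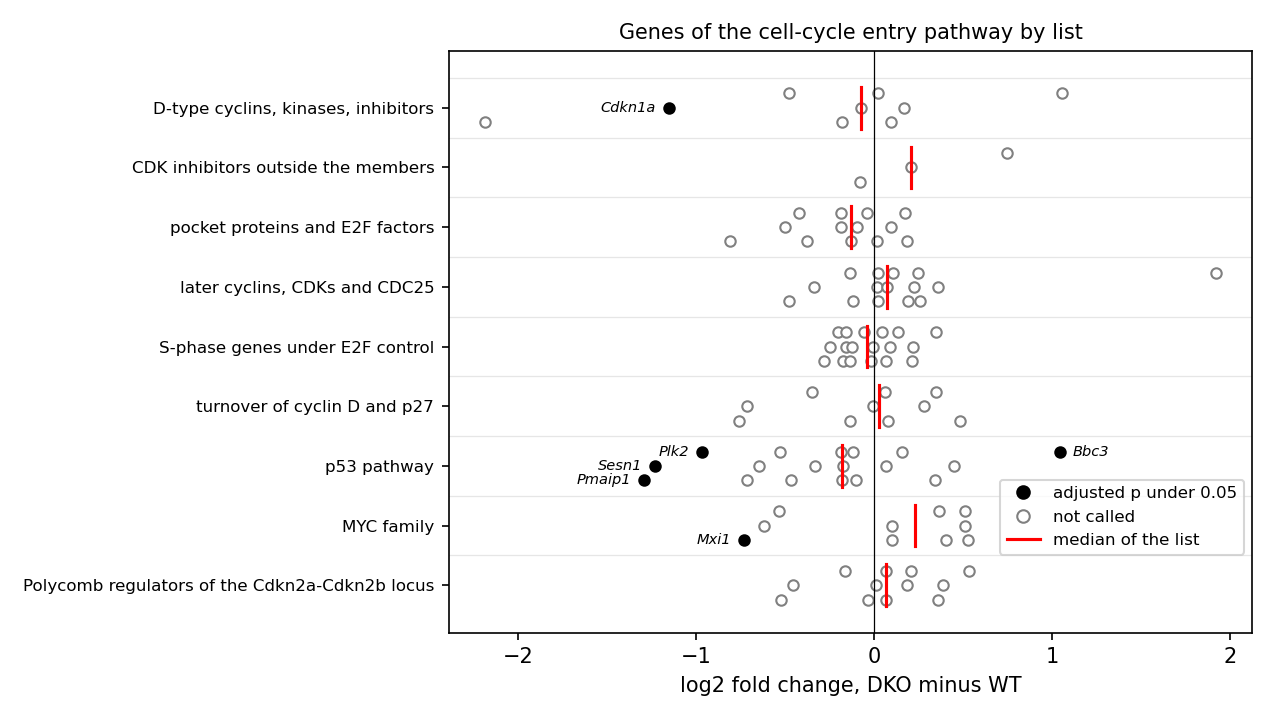
Log2 fold change (DKO minus WT) of each tested gene on the horizontal axis, in 1 row per list, with called genes filled and named and the median of each list as a red line. The calls outside the 10 genes lie in the p53 and MYC lists; the open point at 1.92 among the later cyclins is Ccna1, which stayed under 1 CPM in each library.

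The p53 list, named for a transcription factor known to activate Cdkn1a, held 4 of the 5 calls made in the pathway lists. Of 18 p53 pathway genes, 3 were lower and 1 higher by edgeR, beside 2.81% lower and 1.7% higher over all genes, and the median was -0.18 beside 0.03. DESeq2 called 5 lower and 1 higher, beside 4.97% and 3.83% of all genes. At an unadjusted p under 0.05, 6 were lower and 1 higher, beside 9.36% and 8.66%. The 14 genes not called by edgeR included Mdm2 (log2 fold change -0.18, edgeR adjusted p = 0.585), Ccng1 (-0.12, 0.700) and Bax (0.16, 0.631). This list, like the others, was chosen with earlier results of these data known. Plk2, a polo-like kinase gene induced by p53, read 98.02, 86.8 and 110.8 CPM in DKO and 185.1, 175.7 and 217.0 CPM in WT, so the groups were well apart. Plk2 had a log2 fold change of -0.97 (SE 0.135, edgeR adjusted p = 0.00596), and it was called in all 11 alternatives. Sesn1, a stress-response gene of the sestrin family, read 17.7, 22.2 and 26.7 CPM in DKO and 47.8, 62.1 and 47.1 CPM in WT. For Sesn1 it was -1.23 (SE 0.192, edgeR adjusted p = 0.00947), and the call was lost without DKO 40 (adjusted p = 0.0571, the highest of the 11 alternatives).

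The 2 cell death genes called in the p53 list went in opposite directions. Pmaip1, which encodes the BH3-only protein Noxa, fell to 5.76 ± 2.07 CPM in DKO from 14.1 ± 2.96 CPM in WT (log2 fold change -1.29, edgeR adjusted p = 0.0396). Bbc3, which encodes the BH3-only protein Puma, rose from 8.76 ± 1.85 to 17.8 ± 3.42 CPM (1.05, edgeR adjusted p = 0.0394). These calls sat near the threshold: that of Pmaip1 was lost in 8 of 11 alternatives (adjusted p up to 0.163) and that of Bbc3 in 7 of 11 (up to 0.222). Sesn2 (69.7 ± 13.8 and 44.5 ± 3.91 CPM, adjusted p = 0.0689) and the growth arrest gene Gadd45a (20.9 ± 0.917 and 12.7 ± 2.03 CPM, adjusted p = 0.0682) did not pass. Trp53 itself, added to the plot after its values were seen, was at 388.7 ± 48.7 CPM in WT against 407.3 ± 23.0 CPM in DKO (log2 fold change 0.07, edgeR adjusted p = 0.825). Its transcript level does not report the amount or activity of the protein.

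**Figure D4:**
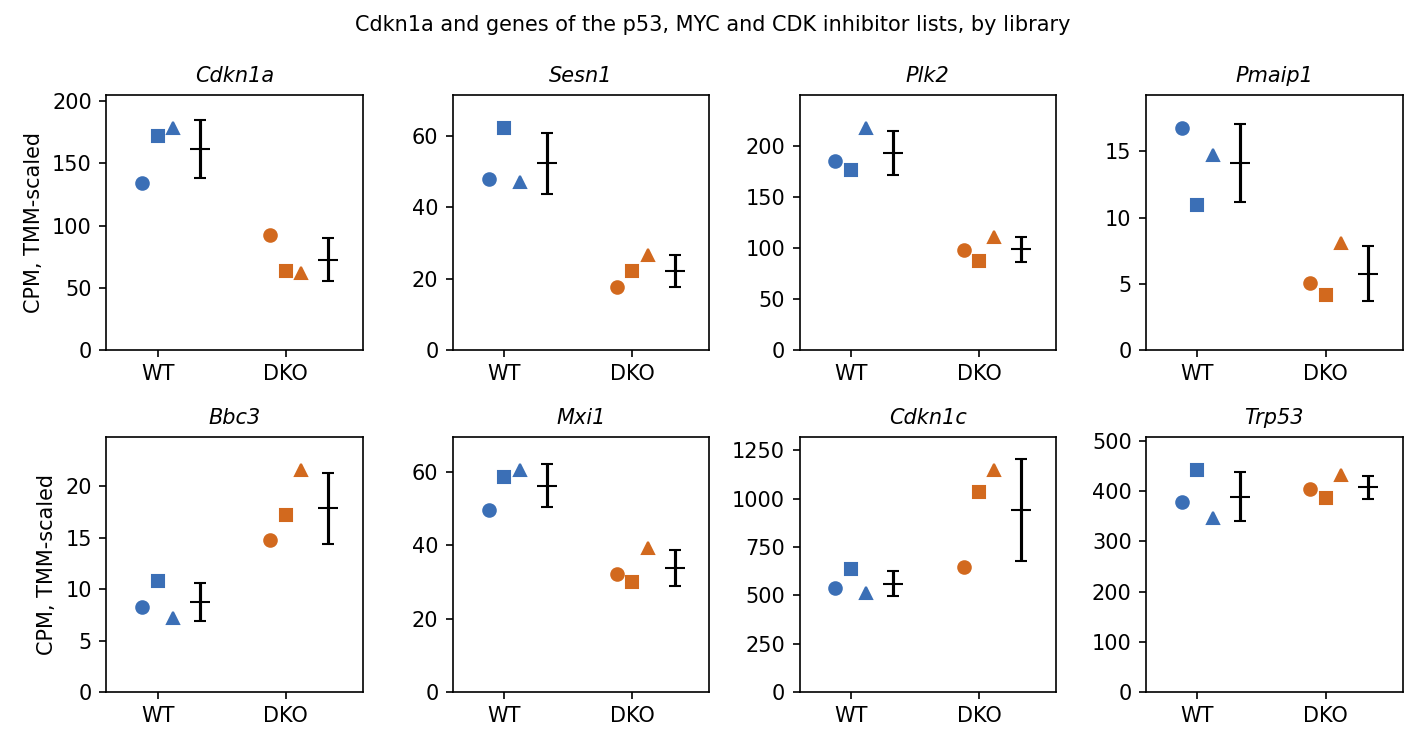
TMM-scaled CPM by library in WT and DKO for Cdkn1a, the 5 genes called in the p53 and MYC lists, Cdkn1c and Trp53, with 1 marker per library and the mean ± SD of each group (n = 3). Cdkn1a, Sesn1, Plk2, Pmaip1 and Mxi1 are lower in DKO without overlap, Bbc3 and Cdkn1c are higher without overlap, of which Cdkn1c was not called, and the groups of Trp53 overlap.

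MYC proteins are known activators of Ccnd2 and Cdk4 and repressors of Cdkn1a, and 10 genes of the family and its partners were tested. Of these, 1 was lower and 0 higher, beside 2.81% and 1.7% of all genes, with 3 lower and 0 higher at an unadjusted p under 0.05 (9.36% and 8.66% of all genes) and 1 lower by DESeq2 (4.97%). The 10 genes had a median of 0.23, beside 0.03 over all genes: 7 genes had positive fitted values, from 0.10 to 0.53, and none of those was called. The gene called was Mxi1, a repressor that competes for the MYC partner Max. Mxi1 fell to 33.9 ± 4.85 CPM in DKO from 56.3 ± 5.86 CPM in WT (log2 fold change -0.73, edgeR adjusted p = 0.0322), a call lost in 7 of 11 alternatives (adjusted p up to 0.152). Mycn was at 251.4 ± 53.9 CPM in WT against 173.7 ± 52.6 CPM in DKO (edgeR adjusted p = 0.252). Mycl was at 207.1 ± 11.7 and 134.9 ± 45.5 CPM (adjusted p = 0.154), with DKO 41 close to the WT libraries at 184.6 CPM.

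Polycomb complexes are known to keep the Cdkn2a and Cdkn2b locus silent, and 12 genes of their subunits and of opposing demethylases were tested. Of these, 0 were called by edgeR, with 2 in each direction at an unadjusted p under 0.05 and 1 lower by DESeq2, and the median was 0.07. Over all genes 4.51% were called by edgeR, 9.36% were lower and 8.66% higher unadjusted, and 4.97% were lower by DESeq2. Suz12, a core subunit of Polycomb complex PRC2, was at 45.01 ± 4.54 CPM in WT against 31.4 ± 4.06 CPM in DKO (log2 fold change -0.52, edgeR adjusted p = 0.0997). Kdm6b, a demethylase of the mark PRC2 lays down, was at 21.3 ± 5.10 and 31.1 ± 5.77 CPM (0.53, adjusted p = 0.239).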

How the data were processed

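The authors deposited raw counts per gene for 55401 genes in 6 libraries. HISAT2, StringTie, Cufflinks, DESeq2, fastp and FastQC, and the builds GRCm38 and mm10, are named per the submitters' processing notes. Versions, roles and the step that counted reads were not given in the sources used here. Per the labels' protocols, libraries were made with SMART-Seq v4 and Nextera XT, which do not mark strand and carry no molecular identifiers, so PCR copies count as reads and counting intervals cover counting error only. In each library values of 1 outnumbered values of 2 (DKO 17 has 1490 genes at 1 and 617 at 2), and the smallest counts are possibly rounded estimates. Columns were assigned to a group by name, and those named WT were taken as the littermates at embryonic day 9.75.

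Genes were tested with edgeR 4.0.16 in R 4.3.3 (quasi-likelihood F test after filterByExpr and TMM, with robust glmQLFit and legacy=FALSE), with Benjamini-Hochberg adjustment over 19126 genes and calls at 0.05. CPM are TMM-scaled; the SE is the size of a log2 fold change over the root of its F value. The fit was tested on simulated counts with a dispersion of 0.05. The outcome is not reported here, and such a test does not cover the spread among these libraries. DESeq2 1.42.0, other size factors, no filter and left-out libraries were the alternatives. Each pair of libraries differed by more than sampling noise (chi-square per degree of freedom 50.2 or more). The labels do not say which libraries came from one embryo or litter, and p-values thus cover only the spread among these libraries, which may be technical. Positions and lengths came from GENCODE M21 (99.53% of identifiers matched) and promoters from RefSeq. Levels per kilobase used the union of exons. Exons of Rb1, Ccne2, Cdc25c, Gadd45a, Mxi1, Suz12 and Kdm6b share 896, 609, 623, 337, 194, 178 and 286 bases with other genes.

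The members and gene lists were chosen with earlier results of these data known. The rule named the 10 members, Sp8 and Sp6, each called gene of a pathway list with up to 2 more of largest log2 fold change at 5 CPM or more in the higher group, the 3 protein-coding genes closest in pattern to each of the 3 members of smallest adjusted p, and the nearest protein-coding genes of Cdkn2a and Cdkn2b. Other genes were named for overlaps, as markers or after their values were seen.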

Additional observations from a re-analysis of the deposited data

How the results depend on the processing

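The call of Cdkn1a held in 9 of 11 alternatives and its direction in all 11, and the number of members called ranged from 0 to 1 with 1 library left out. Over all genes, the 863 calls became 1738 with DESeq2, 412 with no filter, 546 with legacy=TRUE, 377 without WT 32 and DKO 41, and 247 to 918 with 1 library left out. In the pathway lists, the 5 calls became 12 with DESeq2, 2 with no filter, 2 with legacy=TRUE and 1 to 7 with 1 library left out. RLE size factors gave 853 calls over all genes. The log2 fold change of Ccnd1 turned to 0.054 without WT 32 and DKO 41, and that of Cdk4 ranged from -0.054 to 0.0997 with 1 library left out. The difference in the log2 ratio of Cdk6 to Cdk4 ranged from -0.072 to 0.197 in the same way. The difference of 7.004 CPM per kilobase in the summed cyclins became 9.23 by library totals and 1.75 by principal transcript, a length chosen after seeing the data, and was 75.7 CPM without division by length. The cause of these changes was not tested. No paired analysis was possible because the labels do not say which libraries share a litter. The columns also carry none of the replicate numbers of the labels. Cdkn1b, Cdkn2b and Cdkn2c rest on 176 counts or fewer in each library, and their WT libraries differed widely (16 to 176 counts for Cdkn2b); the parts of depth and of spread in their wide intervals were not tested.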
